A study of Homo sapiens with 16 samples.

Results

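Kidney organoids made from the UM77-2 human embryonic stem cell (hESC) line were compared between day 25 (D25) and day 21 (D21) of culture by bulk RNA-seq. The libraries are 4 of the 16 samples of the series, 2 from each day, and all 27650 genes listed for them were examined. These 4 libraries and 2 of day 29 (D29) form set 2, in which spheroids were isolated from wells that had been refed every day from day 17. No agent was added in set 2, so the days differ in culture time alone as far as the labels say. The series also holds set 1, with 1 library on each of these days from the same line, a tumor necrosis factor set and single-cell libraries. Libraries of a day are named Org1 and Org2, and 2 values given for a day follow that order. Nothing in the sources used here says that Org1 and Org2 came from separate cultures, so the p-values measure only the spread between these libraries. All come from 1 stem cell line. The D21 libraries held 21688143 and 27580051 reads on genes and the D25 libraries 19073609 and 22287265, and the D29 libraries that share the estimate of the spread held 30282025 and 27660405.

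Kidney organoids follow the order of nephron development. Nephron progenitors form vesicles, and these give podocytes, the cells that build the slit diaphragm of the glomerular filter, together with segments of the tubule. Stromal cells lie between the nephron structures and lay down collagens, proteoglycans and elastic fibres, and cells of other lineages, such as neurons and skeletal muscle, are known to arise beside them. A stromal cell that expresses smooth muscle actin and makes much matrix is called a myofibroblast, and transforming growth factor-beta (TGF-beta) signalling is a known driver of that state.

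Between D21 and D25, genes of contractile stroma, of the extracellular matrix and of the metallothionein family were among those that rose. Genes listed for the early nephron, for glycolysis and for cell division were among those that fell. The threshold for a call was an adjusted p of 0.05 (limma, Benjamini-Hochberg adjustment over 27650 genes), and changes are differences of mean log2(CPM + 1), where CPM is the read count scaled to library size, so that the change of a low gene is understated. In all, 1486 genes were called (5.37% of those tested), 937 higher (3.39%) and 549 lower (1.99%) on D25. The median change was 0.84 among the genes called higher and -0.60 among those called lower, against -0.0020 over all genes. With each library centred on the median of all its genes the split turned to 971 higher and 1281 lower. At least a 2-fold change was seen in 350 genes upward (1.27%) and 76 downward (0.275%), of which 321 and 71 were called. Protein-coding genes held 867 of the rises and 461 of the falls, and long noncoding RNAs 46 and 61. The libraries of the days did not overlap in any of the 1486 genes, which was also true of 24.4% of all genes with D25 higher and 25.6% with D25 lower.

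Far fewer genes were called when a D21 or D25 library was left out. Such a fit leaves that day 1 library and makes a weaker test. The loss therefore does not show that the calls depended on a particular library. Without D21 Org1 498 genes were called, without D21 Org2 246, without D25 Org1 314 and without D25 Org2 241, and 190 genes (156 higher, 34 lower) were called in each of these 4 fits. Without D29 Org1 or D29 Org2 2231 and 2226 were called. The D29 libraries differed most from each other, with a median absolute difference of 0.132 (log2) against 0.101 for D21 and 0.113 for D25 over 18572 genes with a mean of at least 1. D21 Org1 lay closer than D21 Org2 to the D25 mean in 677 of the 937 genes called higher (72.3%) and in 364 of the 549 called lower (66.3%). Of 148 called genes named by a rule that reads the lists and the size of the change, 53 were called in all 4 fits. These were, in falling order of the signed change, OGN, INHBA, ACTG2, ACTA2, MYH11, COL12A1, MGP, FBLN5, HGF, MFAP4, THBS2, MMP7, TAGLN, RSPO3, PODN, CFI, AGTR2, COL16A1, FN1, POSTN, TGFBI, IGF1, LRRC32, IFI44L, SFRP1, COL9A3, DCN, CLDN11, BHMT, PECAM1, ADAMTS5, MMP2, COL6A3, WNT4, PDGFRA, CDH16 and FOSL2 among the rises and HNF4A, KRT19, DDIT4, JAG1, HK2, STC2, SLC16A1, SLC4A11, FGF8, SCNN1G, CRYGN, SST, DGKG, MYEOV, MYOM2 and LIN28A among the falls. The other 95 lost their call without at least 1 of the libraries. For gene lists, counts without a library are given in the order D21 Org1, D21 Org2, D25 Org1, D25 Org2.

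Set 1 gave a second look at the direction, without a test. Set 1 lists 1386 of the called genes, and 1174 of them (84.7%) had the same direction there, 815 of 901 genes called higher (90.5%) and 359 of 485 called lower (74.0%). Over all 20115 shared genes 51.8% were higher and 48.2% lower on D25 in set 1. Among the genes called in all 4 fits that left out a library, 184 of 188 (97.9%) had the same direction. The 4 exceptions, named after their values were seen, were COL15A1 (1.59 in set 2, -0.15 in set 1), the endothelial receptor gene CD93 (1.27, -0.32), the Notch-modifying glycosyltransferase gene LFNG (-0.82, 0.02) and the muscle gene MYBPC1 (-1.15, 0.28).

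**Figure D1:**
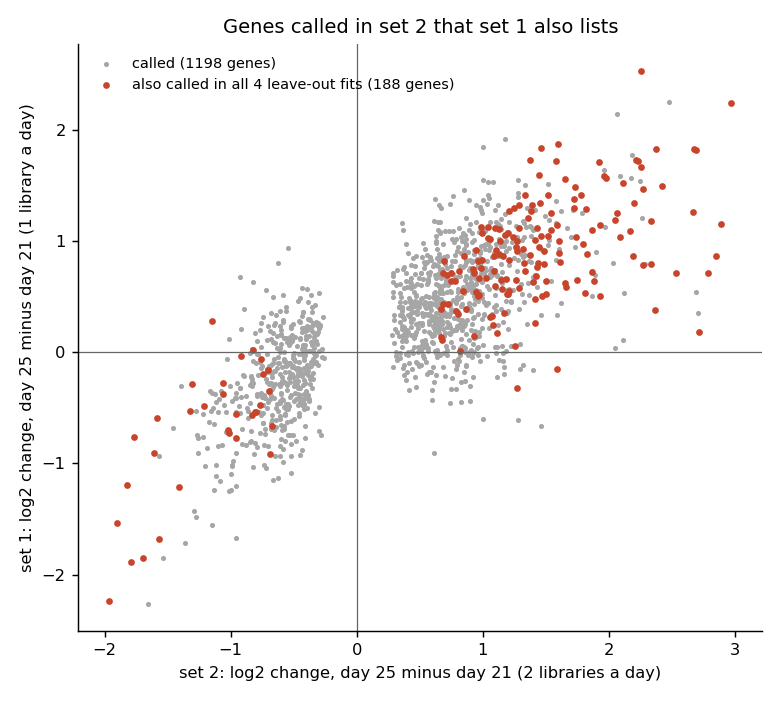
Change from day 21 to day 25 in set 2 (x axis, log2) against the change in set 1 (y axis, log2, 1 library a day) for each called gene that set 1 lists. Red points are the 188 genes called also in all 4 fits that left out a D21 or D25 library, of which 184 lie in the quadrants of equal direction and 4 do not.

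The largest rises and falls were ranked among called genes with a symbol, a mean of at least 1, no overlap of the libraries and the same direction in set 1. In this ranking the rise with the largest size was OGN (ENSG00000106809, chr9:92383268-92404696, GENCODE 44 on GRCh38), which encodes osteoglycin, a small proteoglycan of the matrix. Its log2(CPM + 1) went from 1.03 and 0.31 on D21 to 3.66 and 3.61 on D25, a change of 2.97 (SE 0.26, limma adjusted p = 0.0014), and the mean CPM was 18.6-fold higher. INHBA (ENSG00000122641, chr7:41667168-41705834), which encodes the subunit that forms activin A, went from 2.10 and 1.75 to 4.98 and 4.65 (2.89, SE 0.17, limma adjusted p = 0.000963), a 9.72-fold rise in CPM. In both genes the D25 libraries lay far above either D21 library, and in OGN they also lay close together. COL12A1 (ENSG00000111799, chr6:75084326-75206267), a collagen that decorates fibrils, rose from 5.31 and 4.52 to 7.5 and 7.71 (2.69, SE 0.26, limma adjusted p = 0.00191). MGP (ENSG00000111341, chr12:14880864-14885857), the matrix Gla protein gene that inhibits calcification, had 1 and 5 reads on D21 and 119 and 138 on D25 (2.68, SE 0.26, limma adjusted p = 0.00197). FBLN5 (ENSG00000140092, chr14:91869411-91947987), an elastic fibre assembly gene, rose from 3.60 and 2.85 to 5.85 and 5.93 (2.67, SE 0.21, limma adjusted p = 0.00116). The other members of the 10 largest rises were the contractile genes ACTG2, ACTA2 and MYH11 and the metallothionein genes MT1H and MT1G, described with their groups.

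The largest fall in the same ranking was that of LIN28A (ENSG00000131914, chr1:26410817-26429728), an RNA-binding protein gene of pluripotent and early embryonic cells. It went from 2.74 and 3.10 on D21 to 0.82 and 1.10 on D25 (-1.96, SE 0.18, limma adjusted p = 0.00171), and its mean CPM was 7.12-fold lower. SLC16A1 (ENSG00000155380, chr1:112911847-112957593), the lactate transporter gene MCT1, had the highest level of the 10 largest falls, 8.65 and 8.93 on D21 and 7.32 and 7.13 on D25 (-1.57, SE 0.13, limma adjusted p = 0.00123), or 445 and 149 mean CPM. FGF8, a growth factor of the early nephron, went from 2.75 and 2.85 to 1.32 and 1.07 (-1.61, SE 0.17, limma adjusted p = 0.00296). SST, the somatostatin hormone gene, fell by 1.77 (SE 0.14, limma adjusted p = 0.00116) and DSC1, a desmosomal cadherin gene, by 1.65 (SE 0.27, limma adjusted p = 0.0156). The remaining falls were MYOM2 (-1.90), a sarcomere gene, MYEOV (-1.82), DGKG (-1.79), a diacylglycerol kinase gene, CRYGN (-1.70), a crystallin gene, and SLC4A11 (-1.59), a membrane transporter gene. All 20 genes were called with edgeR and with DESeq2. In the fits that left out a library, 8 of the 10 rises and 9 of the 10 falls were called every time, the exceptions being MT1H and MT1G, each called in 1 of the 4 fits, and DSC1, called in none (adjusted p up to 0.16, without D21 Org2).

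**Figure D2:**
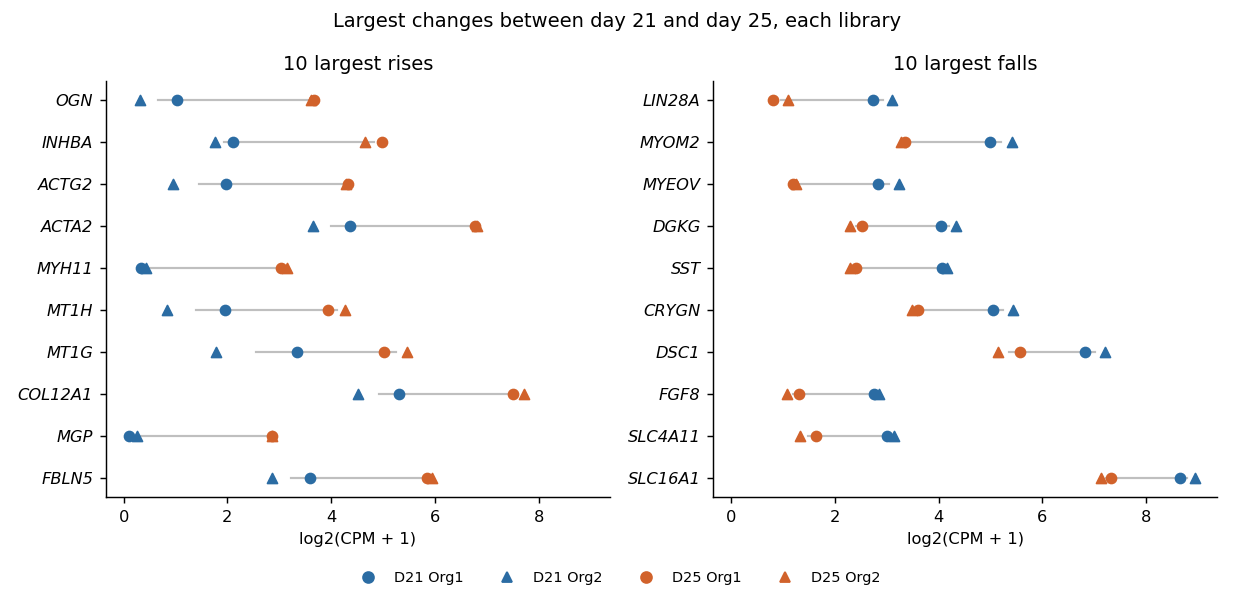
Values of the 10 largest rises and 10 largest falls in each library, on the log2(CPM + 1) scale, with D21 in blue, D25 in orange, circles for Org1 and triangles for Org2, and a grey line joining the day means. The genes were chosen among called genes whose D21 and D25 libraries do not overlap, so the lack of overlap follows from the choice. Among the rises D21 Org2 lies below D21 Org1 in every gene except MYH11 and MGP.

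The called genes were unevenly spread over lists of genes with a known role. The plot of gene lists gives every member, and each list is described against the 3.39% and 1.99% of all genes called higher and lower. In bulk RNA, fewer cells of a type and less RNA per cell cannot be told apart, which holds for each cell type list that follows.

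**Figure D3:**
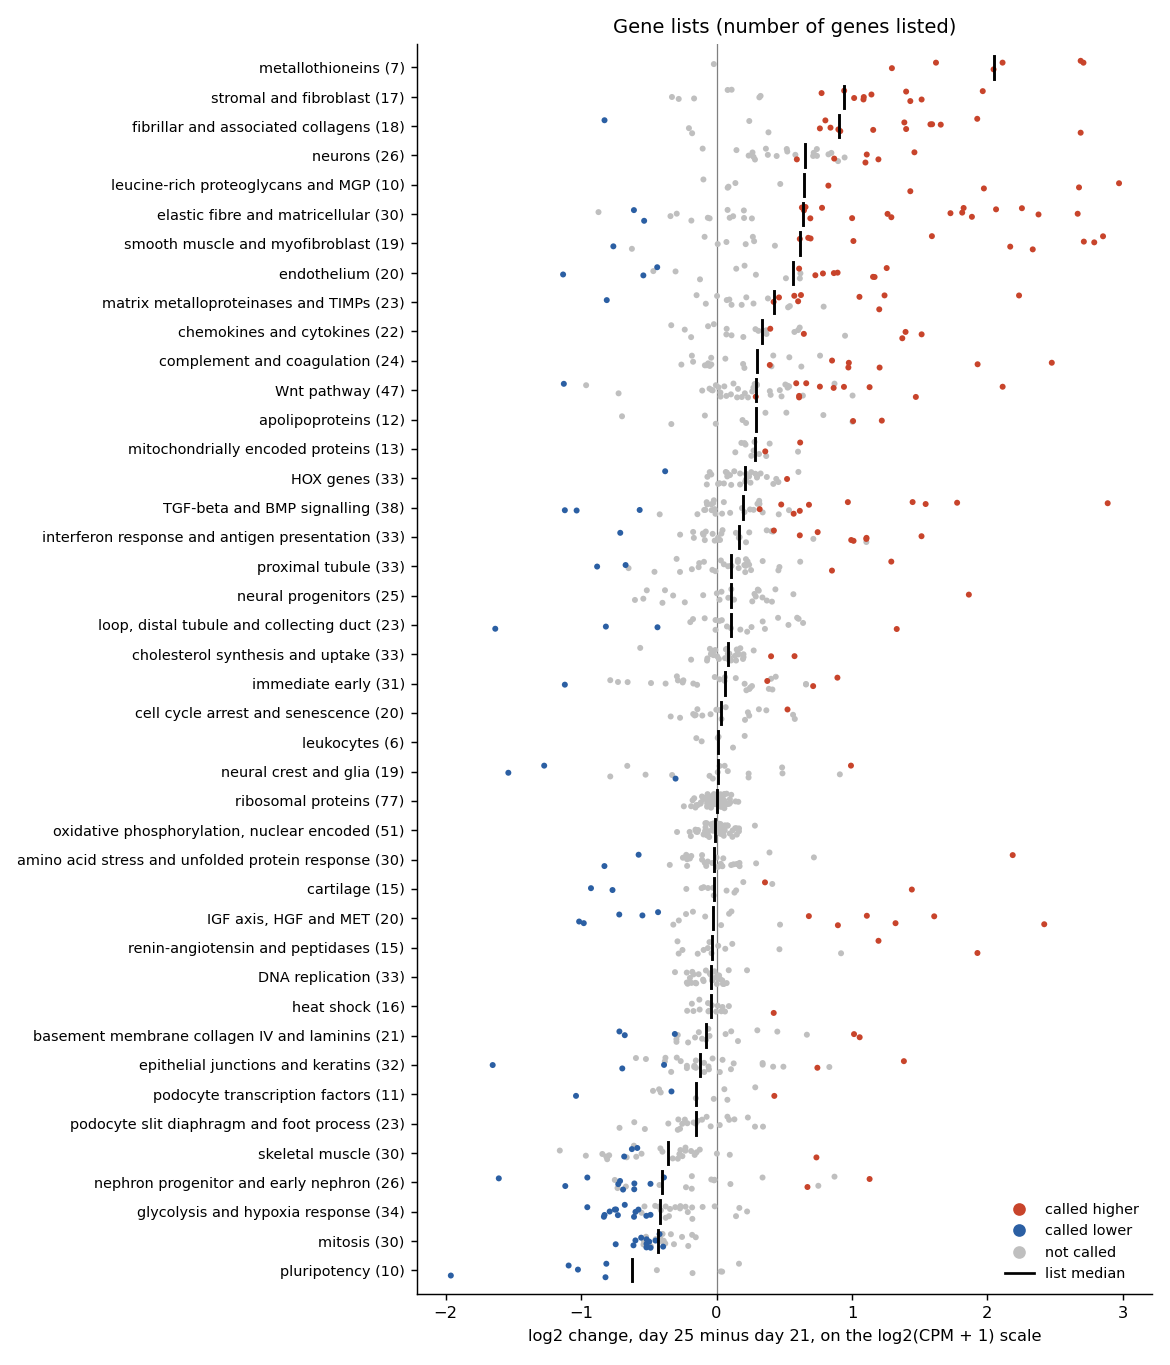
Change from day 21 to day 25 (log2) of each gene of 42 lists, with the number of listed genes in brackets, red for called higher, blue for called lower, grey for not called, and a black bar at the list median. Medians run from 2.05 for metallothioneins to -0.63 for pluripotency genes, while ribosomal protein genes cluster at 0.00.

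Contractile genes rose together. Of 19 genes of smooth muscle and myofibroblasts, 10 were called higher and 1 lower (7, 7, 7 and 7 without each library), with a list median of 0.61. ACTA2 (ENSG00000107796, chr10:88935074-88991339), the alpha smooth muscle actin gene, went from 4.37 and 3.64 on D21 to 6.77 and 6.82 on D25 (2.79, SE 0.20, limma adjusted p = 0.00102), a 7.07-fold rise in mean CPM from 15.5 to 110. ACTG2 (ENSG00000163017, chr2:73892314-73919865), the enteric smooth muscle actin gene, went from 1.97 and 0.94 to 4.33 and 4.29 (2.85, SE 0.32, limma adjusted p = 0.00353), and the 2 actins are similar enough in sequence that reads may have been split between them. MYH11 (ENSG00000133392, chr16:15703135-15857028), the smooth muscle myosin heavy chain gene, had 5 and 9 reads on D21 and 136 and 175 on D25 (2.71, SE 0.15, limma adjusted p = 0.000963). TAGLN, an actin-binding protein gene, also rose, from 5.08 and 4.69 to 7.0 and 7.11 (2.17, SE 0.16, limma adjusted p = 0.00102). The calponin gene CNN1 rose by 1.59 and the Z-disc gene SYNPO2 by 2.33, both named here, like other genes given only for completeness of their list, after their values were seen. LMOD1, which nucleates actin filaments in smooth muscle, was the member called lower (-0.76, limma adjusted p = 0.0274). In set 1 the rises were smaller: 0.71 for ACTA2, 0.87 for ACTG2, 0.18 for MYH11 and 1.09 for TAGLN.

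CArG boxes, the elements that serum response factor is known to bind in smooth muscle genes, were counted in promoter windows of 250 bases before to 50 after the start of each gene. Only the first window listed for each gene was searched, so any other start was left out. Of 8 contractile risers with a window, ACTG2 and MYLK, the myosin light chain kinase gene, held a CArG box, against 1.29% of 27303 windows. The bases before the MYLK start used were chr3:123620549-123620798 on the minus strand. Whether the kinase transcript begins there was not checked. The ACTG2 window held 2 boxes, and the 250 bases before its start (RefSeq, GRCh38.p14, chr2:73892758-73893007, plus strand) are shown 5′ to 3′ because this gene had the largest rise of the list, with the boxes in capitals.
ACTG2: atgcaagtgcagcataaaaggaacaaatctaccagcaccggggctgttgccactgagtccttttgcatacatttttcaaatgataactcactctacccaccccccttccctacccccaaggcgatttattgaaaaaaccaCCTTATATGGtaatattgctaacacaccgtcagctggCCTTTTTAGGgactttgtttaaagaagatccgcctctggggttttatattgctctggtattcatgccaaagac
No box was found in the ACTA2 window, which says only that these letters are not in those bases.

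Matrix genes made up the broadest group of rises. Of 18 fibrillar and associated collagen genes 13 were called higher and 1 lower (10, 7, 8 and 6 called without each library), and the list median was 0.91. COL1A1, the main chain of type I collagen, went from 10.12 and 9.82 on D21 to 11.57 and 11.68 on D25 (1.66, SE 0.18, limma adjusted p = 0.00312), and COL3A1 of type III collagen from 10.85 and 10.57 to 12.10 and 12.12 (1.4, SE 0.18, limma adjusted p = 0.00591). COL16A1 rose by 1.93 (limma adjusted p = 0.0018) and COL6A3 by 1.16 (limma adjusted p = 0.00257), both in all 4 fits without a library. COL1A1 and COL3A1 lost their call without D21 Org2, with adjusted p of 0.0652 and 0.114. COL24A1 was the collagen called lower (-0.83, limma adjusted p = 0.024). The summed CPM of the list was 6362 and 5603 on D21 and 13443 and 13926 on D25.

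The proteins around the fibrils moved the same way. Among 10 leucine-rich proteoglycan genes and MGP 5 were called higher and none lower (4, 4, 4 and 4), with DCN, the decorin gene, going from 5.59 and 5.36 to 6.97 and 6.85 (1.43, SE 0.14, limma adjusted p = 0.0018) and PODN, the podocan gene, from 0.78 and 0.71 to 2.79 and 2.65 (1.97, SE 0.15, limma adjusted p = 0.00116). LUM, the lumican gene, had 1.12 and 0.80 on D21 and 1.29 and 0.80 on D25 and was not called. Of 30 elastic fibre and matricellular genes 16 were called higher and 2 lower (12, 9, 10 and 10), with a median of 0.64. FN1, the fibronectin gene, went from 7.03 and 6.71 to 8.74 and 8.77 (1.89, SE 0.15, limma adjusted p = 0.00121). POSTN, the periostin gene, rose by 1.82 (limma adjusted p = 0.00381), MFAP4, a microfibril gene, by 2.38 (limma adjusted p = 0.00143) and THBS2, the thrombospondin 2 gene, by 2.25 (limma adjusted p = 0.0032). ELN, the elastin gene, rose by 2.06 (limma adjusted p = 0.00793) and was called in 1 of the 4 fits without a library. The members called lower were EFEMP1 (-0.61) and LOXL3 (-0.53).

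Enzymes that cut matrix rose beside the proteins that form it. Of 23 matrix metalloproteinase, related ADAMTS and TIMP inhibitor genes 9 were called higher and 1 lower (6, 4, 6 and 4), with a median of 0.42. MMP7, the matrilysin gene, went from 3.53 and 2.89 on D21 to 5.59 and 5.30 on D25 (2.23, SE 0.25, limma adjusted p = 0.00348). MMP2, the gelatinase A gene, went from 5.86 and 5.59 to 6.89 and 6.96 (1.2, SE 0.11, limma adjusted p = 0.00162), and ADAMTS5, an aggrecanase gene, rose by 1.24 (limma adjusted p = 0.00295). TIMP1, an inhibitor, had 5.66 and 5.55 on D21 and 5.75 and 5.83 on D25 and was not called (limma adjusted p = 0.212). MMP23B was the member called lower (-0.81).

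Stromal cell markers rose as the matrix genes did. Of 17 markers of stroma and fibroblasts 10 were called higher and none lower (8, 4, 6 and 6), with a median of 0.94. PDGFRA, the platelet-derived growth factor receptor alpha gene of mesenchymal cells, went from 6.65 and 6.43 to 7.64 and 7.61 (1.08, SE 0.09, limma adjusted p = 0.00128). PRRX1, a mesenchymal transcription factor gene, went from 3.06 and 2.75 to 4.95 and 4.79 (1.97, SE 0.23, limma adjusted p = 0.00387), and CXCL12, a stromal chemokine gene, from 6.47 and 6.32 to 7.99 and 7.84 (1.51, SE 0.17, limma adjusted p = 0.00332). The list includes COL3A1 and DCN. Its summed CPM was 2743 and 2386 on D21 and 5909 and 5917 on D25.

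The TGF-beta pathway moved in parts. Of 38 genes of TGF-beta and bone morphogenetic protein signalling 10 were called higher and 3 lower (7, 4, 5 and 4), with a median of 0.20. Among ligands, INHBA rose as given above, whereas TGFB1 had 4.74 and 5.02 on D21 and 5.18 and 5.22 on D25 (0.32, limma adjusted p = 0.149). LRRC32, which holds latent TGF-beta at the cell surface, went from 3.26 and 3.24 to 4.77 and 4.81 (1.54, SE 0.10, limma adjusted p = 0.000963). Of genes known to be induced by the pathway, TGFBI went from 6.41 and 5.82 to 7.86 and 7.92 (1.78, SE 0.20, limma adjusted p = 0.00348) and the feedback inhibitor gene PMEPA1 from 3.77 and 3.48 to 5.02 and 5.13 (1.45, SE 0.11, limma adjusted p = 0.0012). CCN2, the connective tissue growth factor gene, went the other way, from 9.14 and 9.43 to 8.25 and 8.08 (-1.12, SE 0.18, limma adjusted p = 0.0143). In the single cells described below, CCN2 was highest in podocytes and not in stroma. The receptor gene TGFBR2 fell by 0.57 and the latent binding protein gene LTBP2 by 1.03. CCN2 was called in none of the 4 fits without a library.

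Growth factor genes of mesenchyme were among the rises. HGF (ENSG00000019991, chr7:81699010-81770438), the hepatocyte growth factor gene, went from 0.85 and 0.43 on D21 to 3.0 and 3.12 on D25 (2.42, SE 0.18, limma adjusted p = 0.00116), or 0.555 and 7.32 mean CPM. IGF1, the insulin-like growth factor 1 gene, went from 2.86 and 2.79 to 4.53 and 4.34 (1.61, SE 0.11, limma adjusted p = 0.000963). IGF2 stood far higher and had 10.62 and 10.78 on D21 and 10.66 and 10.81 on D25 (limma adjusted p = 0.929). Of the binding proteins, IGFBP5 rose by 1.32 (limma adjusted p = 0.0032) and IGFBP3 by 1.11 (limma adjusted p = 0.00219), while IGFBP4 (-0.55) and IGFBP2 (-0.43) were called lower. PAPPA, the protease that cleaves IGFBP4, fell by 0.72 (limma adjusted p = 0.0249). STC2 and STC1, stanniocalcin genes whose proteins inhibit that protease, fell by 1.01 (limma adjusted p = 0.00197) and 0.98 (limma adjusted p = 0.00418). In all, 6 of 20 genes of this axis were called higher and 5 lower (8, 6, 7 and 6).

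Of 47 Wnt pathway genes 11 were called higher and 1 lower (4, 3, 6 and 4), with a median of 0.29. RSPO3, an R-spondin gene of stroma that strengthens Wnt signals, went from 3.0 and 2.73 to 5.09 and 4.86 (2.11, SE 0.16, limma adjusted p = 0.00116). The secreted inhibitor gene SFRP1 went from 6.38 and 6.25 to 7.90 and 7.67 (1.47, SE 0.09, limma adjusted p = 0.000963), and the ligand gene WNT4 from 5.34 and 5.51 to 6.57 and 6.53 (1.13, SE 0.09, limma adjusted p = 0.00116). AXIN2 (0.61, limma adjusted p = 0.0176) and NOTUM (0.76, limma adjusted p = 0.00906), feedback targets of the pathway, were called higher, and LGR5, an R-spondin receptor gene, lower (-1.13, limma adjusted p = 0.02).

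Metallothionein genes, which encode small cysteine-rich proteins that bind zinc and copper and are induced by these metals, made up the list with the highest median, 2.05. Of 7 members 6 were called higher (5, 1, 0 and 0 without each library, and 6 with edgeR and 6 with DESeq2). MT1G (ENSG00000125144, chr16:56666730-56668065) had 3.34 and 1.77 on D21 and 5.02 and 5.47 on D25 (2.69, SE 0.50, limma adjusted p = 0.0241). MT1H (ENSG00000205358, chr16:56669814-56671129) had 1.96 and 0.83, then 3.93 and 4.27 (2.71, SE 0.41, limma adjusted p = 0.0116), and MT2A (ENSG00000125148, chr16:56608584-56609497) 2.42 and 1.57, then 4.06 and 4.16 (2.11, SE 0.29, limma adjusted p = 0.00764). D21 Org2 was the lowest library in all 3 genes, and the D21 libraries lay far apart. The summed CPM of the list was 30.5 and 12.3 on D21 and 99.0 and 120.4 on D25. In set 1 the changes were 0.54 for MT1G, 0.35 for MT1H and 0.11 for MT2A. Set 1 lists the 6 called members, with a median of 0.23, 5 positive and 1 negative. MT1X (1.29), MT1F (1.62) and MT1E (2.05) were also called, and MT3, the brain form, was not (-0.02). These genes lie side by side on chromosome 16 and are nearly identical in parts, so the counts of single members are uncertain.

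Metal response element cores, searched as TGCACNC or TGCGCNC on both strands, with overlapping matches counted, were looked for in the same promoter windows. Windows were found for 3 of the 6 called metallothionein genes, and all 3 held the core, against 29.3% of 27303 windows and 37.1% of 14801 windows of genes tested here. MT2A held 8 matches, 7 of them before the start, MT1H 8 and MT1X 4. The 250 bases before each start (RefSeq, GRCh38.p14, plus strand) are shown with the matches in capitals, so that their repetition can be seen, at chr16:56608334-56608583 for MT2A, chr16:56669564-56669813 for MT1H and chr16:56682220-56682469 for MT1X.
MT2A: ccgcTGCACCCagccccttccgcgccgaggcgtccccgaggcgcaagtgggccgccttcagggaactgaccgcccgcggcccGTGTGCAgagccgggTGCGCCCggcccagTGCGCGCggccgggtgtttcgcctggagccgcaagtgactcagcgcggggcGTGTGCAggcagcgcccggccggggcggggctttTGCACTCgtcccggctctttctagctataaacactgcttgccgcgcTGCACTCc
MT1H: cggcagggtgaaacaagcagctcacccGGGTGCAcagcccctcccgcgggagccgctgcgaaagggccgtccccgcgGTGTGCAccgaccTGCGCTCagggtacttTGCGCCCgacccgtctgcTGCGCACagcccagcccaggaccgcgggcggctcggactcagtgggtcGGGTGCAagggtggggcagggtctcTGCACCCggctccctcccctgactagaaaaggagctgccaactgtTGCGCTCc
MT1X: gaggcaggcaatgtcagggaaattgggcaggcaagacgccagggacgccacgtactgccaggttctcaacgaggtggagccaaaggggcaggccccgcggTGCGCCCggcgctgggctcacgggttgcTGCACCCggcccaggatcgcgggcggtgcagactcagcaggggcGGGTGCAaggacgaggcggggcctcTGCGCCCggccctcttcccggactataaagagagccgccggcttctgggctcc
A match is a description of letters and not a measured binding site.

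Podocyte genes were abundant on both days, and none of the slit diaphragm and foot process genes was called with all 6 libraries. Of 23 slit diaphragm and foot process genes 0 were called with limma, edgeR or DESeq2, 2 had an unadjusted limma p under 0.05, 16 had a negative change and the median was -0.15. NPHS1 (ENSG00000161270, chr19:35825372-35869287), the nephrin gene, had 10.18 and 10.27 on D21 and 9.53 and 9.49 on D25 (-0.72, SE 0.30, limma adjusted p = 0.252). Both D25 libraries lay below both D21 libraries. The D29 libraries, which share in the estimate of the error, lay far apart, at 8.90 and 7.75. In the fit of the D21 and D25 libraries alone the limma adjusted p was 0.00188 for NPHS1, and 1 member was called higher and 7 lower. The counts were again 1 and 7 without D29 Org1 and without D29 Org2. PODXL, the podocalyxin gene, had 12.12 and 12.18 on D21 and 11.92 and 11.95 on D25, and SYNPO, the synaptopodin gene, 9.34 and 9.51, then 9.25 and 9.46, and in neither fit was either gene called. Summed over the list, D21 held 14209 and 14553 CPM, D25 held 12147 and 12387, and D29 held 10421 and 5325. In set 1, with 1 library a day, the list median was -0.57 and 19 of 23 genes were negative. For the 11 podocyte transcription factor genes the set 1 median was -0.43, with 10 negative.

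Among podocyte transcription factors WT1 showed the same dependence. It had 9.57 and 9.72 on D21 and 9.25 and 9.23 on D25, and it was not called with 6 libraries (limma adjusted p = 0.37) and was called in the fit of 4 (limma adjusted p = 0.0196). The Notch target gene HEY1 was called in both, from 5.34 and 5.71 to 4.59 and 4.39 (-1.04, SE 0.14, limma adjusted p = 0.00726). HEY1 had 25.4 CPM in skeletal muscle, 23.2 in proximal tubule and 17.9 in podocytes in the single cells described below. Its fall is therefore not read as a change in podocytes. In all, 1 of the 11 genes was called higher and 2 lower (1, 0, 1 and 0).

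The basement membrane list held changes in both directions. Of 21 collagen IV, laminin and related genes 2 were called higher and 3 lower (5, 2, 1 and 0), with a median of -0.08. COL4A4, a chain of the mature glomerular collagen IV network, went from 3.86 and 3.43 to 4.75 and 4.66 (1.06, SE 0.14, limma adjusted p = 0.00758), and COL4A3, which partners it, had 3.33 and 2.77, then 3.80 and 3.63 (0.67, limma adjusted p = 0.0842). LAMA2, a laminin chain best known in muscle, rose by 1.02 (limma adjusted p = 0.00537), and LAMA4 fell from 7.49 and 7.70 to 6.93 and 6.83 (-0.72, SE 0.09, limma adjusted p = 0.00465). COL4A1 and LAMB2 were not called (0.16 and -0.06).

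Tubule genes were also split, and so were epithelial junction and keratin genes. In the single cells described below CLDN11 of the latter was highest in stroma (41.8 CPM, with 7.13 in proximal tubule). KRT19 was highest in podocytes (427, with 240 in proximal tubule). The changes of CLDN11 and KRT19 are therefore not read as changes in tubule. CDH16, among the rises named above, had 19.2 CPM in proximal tubule and at most 1.47, in skeletal muscle, in the other gates. Of 33 proximal tubule genes 2 were called higher and 2 lower (4, 3, 2 and 2), with a median of 0.11. HNF4A, the transcription factor gene of that segment, fell from 6.94 and 6.90 to 6.21 and 6.29 (-0.67, SE 0.07, limma adjusted p = 0.00197), and GGT1, a brush border enzyme gene, by 0.88 (limma adjusted p = 0.00591). BHMT, the betaine-homocysteine methyltransferase gene, rose from 5.13 and 4.91 to 6.31 and 6.31 (1.29, SE 0.13, limma adjusted p = 0.00235), and the lactate cotransporter gene SLC5A12 by 0.85 (limma adjusted p = 0.0238). The endocytic receptor genes LRP2 (-0.46) and CUBN (0.46) were not called. Of 23 genes of the loop, distal tubule and collecting duct 1 was called higher and 3 lower (3, 2, 1 and 1). SCNN1G, a subunit of the epithelial sodium channel, went from 1.85 and 2.26 to 0.42 and 0.42 (-1.63, SE 0.15, limma adjusted p = 0.00172) and SCNN1B from 1.29 and 1.57 to 0.63 and 0.60 (-0.82, limma adjusted p = 0.0111), while RET, a receptor gene of ureteric tips, rose by 1.33 (limma adjusted p = 0.00441). RET gave 15 UMIs in neurons, 8 in stroma, 2 in podocytes and 0 in proximal tubule in those single cells. No gate of collecting duct cells was set, so none of these changes is placed in a cell type. Among 32 epithelial junction and keratin genes 2 were called higher and 3 lower (5, 3, 3 and 3), with CLDN11, a tight junction gene, at 5.74 and 5.64, then 7.02 and 7.13 (1.38, SE 0.09, limma adjusted p = 0.000963) and KRT19 at 7.73 and 7.83, then 7.08 and 7.09 (-0.70, SE 0.07, limma adjusted p = 0.00186).

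Genes listed for nephron progenitors and early nephron structures fell more often than they rose. Of 26 genes 10 were called lower and 2 higher (7, 3, 5 and 3), with a median of -0.40. JAG1, the Notch ligand of the renal vesicle, went from 9.65 and 9.77 to 8.81 and 8.70 (-0.95, SE 0.09, limma adjusted p = 0.00162). PAX8 went from 9.44 and 9.59 to 8.90 and 8.75 (-0.69, SE 0.09, limma adjusted p = 0.0066) and PAX2 from 7.43 and 7.40 to 7.0 and 6.86 (-0.49, limma adjusted p = 0.0191), both transcription factor genes of the nephron lineage. EYA1, a progenitor gene, fell by 1.12 (limma adjusted p = 0.0194), while SIX2, the marker of the progenitor cap, stood at 0.74 and 0.74 on D21 and 0.68 and 0.76 on D25. The members called higher were WNT4, given above, and OSR1 (0.67, limma adjusted p = 0.04). In set 1 the list median was -0.16, with 16 of 25 genes negative. No gate of progenitors was set in the single cells described below. There PAX8 had 219 CPM in proximal tubule and 150 in podocytes, and PAX2 78.1 and 32.3. The falls are therefore not placed in progenitor cells. Among 10 pluripotency genes 5 were called lower and none higher (4, 1, 3 and 1), with a median of -0.63. SALL4 went from 4.83 and 4.83 to 3.74 and 3.74 (-1.09, SE 0.13, limma adjusted p = 0.00455), and POU5F1, the OCT4 gene, had 0.78 and 1.05, then 1.09 and 0.80, and was not called.

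Glycolysis and hypoxia response genes were lower on D25. Of 34 genes 13 were called lower, none higher and 31 had a negative change, with a median of -0.42. HK2 (chr2:74834127-74893359), the hexokinase 2 gene, went from 7.71 and 7.73 to 6.71 and 6.81 (-0.95, SE 0.09, limma adjusted p = 0.00197), and the glucose transporter gene SLC2A1 from 9.05 and 9.03 to 8.18 and 8.22 (-0.83, SE 0.14, limma adjusted p = 0.0172). PDK1, which holds pyruvate back from the mitochondrion, fell by 0.83 (limma adjusted p = 0.0111), and PGK1, of the lower pathway, by 0.58 (limma adjusted p = 0.02). GAPDH had 10.74 and 10.84, then 10.45 and 10.45 (limma adjusted p = 0.122), and LDHA 9.41 and 9.47, then 8.92 and 8.89 (limma adjusted p = 0.0635, and 0.00371 with the 4 libraries alone). DDIT4, listed with the amino acid and unfolded protein stress genes and also known as a hypoxia gene that restrains growth signalling, went from 7.58 and 7.63 to 6.77 and 6.79 (-0.83, SE 0.06, limma adjusted p = 0.00116). The summed CPM of the list was 13641 and 14326 on D21 and 9899 and 10439 on D25. Only 1, 1, 1 and 2 members were called without each library, and 20 with the D21 and D25 libraries alone. The hypoxia response element core (ACGTG or GCGTG, either strand) was in the window of 8 of 12 members called lower (66.7%), against 48.4% of all windows and 59.4% of windows of genes tested.

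Mitosis genes had negative changes without exception among the 30 listed, with a median of -0.44, and 12 were called lower (3, 0, 1 and 0 without each library, 17 with edgeR and 16 with DESeq2). TOP2A, which untangles chromosomes, had 7.30 and 7.36 on D21 and 6.99 and 6.69 on D25 (-0.49, SE 0.10, limma adjusted p = 0.0329), and MKI67, the Ki-67 gene, 7.70 and 7.76, then 7.32 and 7.36 (-0.39, SE 0.07, limma adjusted p = 0.0194). Of 33 DNA replication genes 0 were called with limma, edgeR or DESeq2, 2 had an unadjusted limma p under 0.05, and the median was -0.04. In set 1 the medians of the lists lay close, at -0.20 for mitosis (23 of 30 negative) and -0.16 for DNA replication (25 of 33 negative), and whether the lists differ was not tested. PCNA had 5.50 and 5.50, then 5.59 and 5.44. Of 20 genes of cell cycle arrest and senescence 1 was called higher, TP53I3 (0.52, limma adjusted p = 0.0298, with 1, 0, 0 and 0 called without each library), and CDKN1A, the p21 gene, was not (0.21).

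Housekeeping lists moved little. Ribosomal protein genes (77) had a median change of 0.00 and 0 calls with limma, edgeR or DESeq2, and 0 had an unadjusted limma p under 0.05. Nuclear genes of oxidative phosphorylation (51) had a median of -0.01 and 0 calls with each tool, and 2 had an unadjusted limma p under 0.05. The 13 mitochondrially encoded protein genes all had positive changes, with a median of 0.28, and 2 were called, MT-ND3 (0.62) and MT-ND2 (0.36), with 1, 0, 0 and 0 called without each library. In the stress lists, heat shock had 1 gene called of 16, HSPB1 (0.42, with 0, 0, 0 and 0 without each library), and amino acid and unfolded protein stress 1 higher and 2 lower of 30 (3, 2, 1 and 1). The riser was NUPR1, a stress-induced chromatin protein gene, with 17 and 1 reads on D21 and 2.71 and 2.60 on the log2(CPM + 1) scale on D25 (2.19, SE 0.28, limma adjusted p = 0.00589), called in 2 of the 4 fits without a library. Cholesterol synthesis and uptake had 2 of 33 called higher, STARD4 (0.58) and SREBF1 (0.40), with 1, 0, 0 and 0 without each library. Among 31 immediate early genes, 3 were called higher and 1, CCN2, lower (1, 1, 1 and 1). FOS had 8.54 and 7.54 on D21 and 7.75 and 6.88 on D25, so that the libraries of a day lay farther apart than the days, and EGR1 had 7.85 and 6.97, then 7.53 and 7.0. In set 1 FOS changed by 2.73 and EGR1 by 3.21 (1 library a day).

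Markers of neurons had positive changes in 25 of 26 genes, with a median of 0.65, and 6 were called higher (0, 0, 0 and 0 without each library, 11 with edgeR, 8 with DESeq2). DCX, a gene of migrating neurons, had 6.77 and 6.77 on D21 and 7.54 and 7.74 on D25 (0.87, SE 0.19, limma adjusted p = 0.0405), and SLC17A6, a glutamate transporter gene, 1.69 and 1.57, then 3.02 and 3.17 (1.46, SE 0.23, limma adjusted p = 0.0125). In set 1 the list median was 0.03, with DCX at -0.12 and SLC17A6 at 0.33. The summed CPM of the list was 683 and 730 on D21 and 953 and 1157 on D25. Neural progenitor genes had 1 of 25 called, the radial glia gene FABP7 (1.86, limma adjusted p = 0.00465, and 0.0591 without D25 Org2). Of 19 neural crest and glia genes 1 was called higher, CDH19 (0.99), and 3 lower, HEPACAM (-1.54), DCT (-1.27) and MITF (-0.30). Without each library 2, 0, 0 and 1 members were called. In the single cells described below, HEPACAM was higher in podocytes and in proximal tubule cells than in neural crest and glia. MITF had 64.4 CPM in proximal tubule and 63.1 in neural crest and glia. The falls of HEPACAM and MITF are therefore not read as changes in neural crest or glia.

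Endothelial markers were divided. Of 20 genes 8 were called higher and 3 lower (2, 2, 3 and 1), with a median of 0.56. PECAM1 had 2.31 and 2.41, then 3.66 and 3.58 (1.26, SE 0.14, limma adjusted p = 0.00342), CDH5, the VE-cadherin gene, 2.12 and 2.22, then 3.26 and 3.41 (1.17, SE 0.15, limma adjusted p = 0.00605), and the receptor gene KDR 3.90 and 3.52, then 4.78 and 4.96 (1.16, SE 0.14, limma adjusted p = 0.00546). CLDN5, a tight junction gene that podocytes also express, fell from 6.68 and 6.99 to 5.63 and 5.78 (-1.13, SE 0.19, limma adjusted p = 0.0167). In set 1 PECAM1 changed by 0.05, CDH5 by -0.20 and KDR by 0.72. The list median there was -0.00033, with 10 genes positive and 10 negative, and 7 of the 11 called genes had the same direction. Leukocyte markers were near 0, with a summed CPM of 7.75 and 7.61 on D21 and 6.66 and 8.12 on D25 over 6 genes, and 0 were called with limma, edgeR or DESeq2, with 0 at an unadjusted limma p under 0.05.

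Skeletal muscle and cartilage genes were measured as markers of other mesodermal cells. Of 30 skeletal muscle genes 27 had a negative change and the median was -0.36, with 1 called higher and 3 lower (3, 1, 0 and 0). MYH3, the embryonic myosin heavy chain gene, had 4.32 and 4.76, then 3.84 and 3.63 (-0.81, limma adjusted p = 0.0511), and MYOG, the myogenin gene, 2.62 and 3.45, then 1.85 and 1.91 (-1.16, limma adjusted p = 0.0637). DES, the desmin gene, also found in smooth muscle, was the member called higher (0.74, limma adjusted p = 0.012). In set 1 the list moved the opposite way, with a median of 0.76, MYH3 at 1.13 and MYOG at 1.93. Of 15 cartilage genes 2 were called higher and 2 lower (2, 1, 1 and 2). COL9A3 went from 4.40 and 4.34 to 5.83 and 5.80 (1.44, SE 0.12, limma adjusted p = 0.00123), while the main cartilage collagen gene COL2A1 fell by 0.77 (limma adjusted p = 0.0108) and the aggrecan gene ACAN by 0.93 (limma adjusted p = 0.0429). Among the single-cell gates described below COL9A3 was highest in stroma (64.5 CPM), and COL2A1 (121) and ACAN (9.73) in neural crest and glia. No gate of cartilage cells was set, so these changes are not placed in cartilage. HOX genes, which give the position along the body axis, had 28 of 33 positive changes, with 1 called higher, HOXA10 (0.52), and 1 lower, HOXD8 (-0.38), and 0, 0, 0 and 0 without each library.

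Secreted and immune genes rose in smaller numbers. Of 24 complement and coagulation genes 7 were called higher and none lower (4, 3, 3 and 2), led by C7, a terminal complement gene, from 5.55 and 4.69 to 7.48 and 7.72 (2.48, SE 0.29, limma adjusted p = 0.00387), and CFI, a complement inhibitor gene, from 5.35 and 4.77 to 7.12 and 6.86 (1.93, SE 0.17, limma adjusted p = 0.00146). C3 was not called (0.20). Of 33 interferon response and antigen presentation genes 8 were called higher and 1, BST2 (-0.71), lower (4, 1, 1 and 1). IFI44L went from 1.24 and 1.37 to 2.93 and 2.7 (1.51, SE 0.15, limma adjusted p = 0.00228), and ISG15 was not called (-0.27). Of 22 chemokine and cytokine genes 5 were called higher (3, 0, 1 and 1), with CCL2 at 1.96 and 1.48, then 3.23 and 3.0 (1.4, limma adjusted p = 0.00792). In the renin-angiotensin list 2 of 15 were called higher (1, 1, 1 and 1). AGTR2, the fetal angiotensin receptor gene, went from 3.72 and 3.47 to 5.60 and 5.45 (1.93, SE 0.10, limma adjusted p = 0.000963). Of 12 apolipoprotein genes 2 were called higher, with APOL6 at 1.22 (limma adjusted p = 0.0112), and APOE and APOA1 were not (0.52 and 0.36), and 3, 0, 0 and 0 members were called without each library.

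The next 4 days, in which 574 genes (2.08%) were called between D25 and D29, were set beside these values, with the caution that both intervals share the D25 libraries. Part of the matrix genes rose again: called higher on D29 than on D25 were 1 of 18 fibrillar and associated collagens (COL14A1), 5 of 10 leucine-rich proteoglycans and MGP, 5 of 30 elastic fibre and matricellular genes and 5 of 23 genes of matrix metalloproteinases and their inhibitors. OGN changed by 2.97 up to D25 and by 2.02 (limma adjusted p = 0.016) from D25 to D29, MGP by 2.68 and 1.68 (0.027), MMP7 by 2.23 and 2.07 (0.013) and THBS2 by 2.25 and 1.87 (0.018), whereas the second change was not called for FN1 (1.89 and 0.22) or FBLN5 (2.67 and 0.27). The growth factor gene HGF changed by 2.42 and 1.52 (0.013). Of 19 smooth muscle and myofibroblast genes 1, TPM2, was called higher on D29, and the second change was not called for ACTA2 at 2.79 and 0.27 (limma adjusted p = 0.57), ACTG2 2.85 and -0.14 (0.88), MYH11 2.71 and -0.35 (0.28) and TAGLN 2.17 and 0.38 (0.28). MT1G had 2.69 and -0.15. Skeletal muscle genes turned upward, with MYOG at -1.16 and 2.44 (limma adjusted p = 0.013) and MYH3 at -0.81 and 1.86 (0.01), and the mitosis gene TOP2A had -0.49 and 0.46 (0.064). On D29, 17 of the 30 skeletal muscle genes were called above D25, and 5 of the 30 mitosis genes. Of the falls, LIN28A had -1.96 and -0.09, CRYGN -1.70 and -1.37 and HNF4A -0.67 and -1.11.

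Whether the change of a gene differed between the intervals was tested directly. With limma 0 genes passed (the smallest adjusted p was 0.0566), while 2511 (9.08%) had an unadjusted p under 0.05, and 144 (0.521%) passed with edgeR and 245 (1.25% of 19524) with DESeq2. For MYH11 the difference, second interval minus first, was -3.07 (SE 0.26, limma adjusted p = 0.0566, edgeR adjusted p = 0.000371), and for ACTA2 -2.52 (limma 0.123, edgeR 0.00705). For MYL1, a myosin light chain gene of fast muscle, it was 2.49 (limma 0.0643, edgeR 0.00705) and for MYOG 3.59 (limma 0.123, edgeR 0.0098). OGN had -0.95 (limma 0.587, edgeR 0.134) and MGP -1.0 (limma 0.576, edgeR 0.0659), passing with neither tool. DDIT4 had 1.25 (limma 0.0566, edgeR 0.00705).

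**Figure D4:**
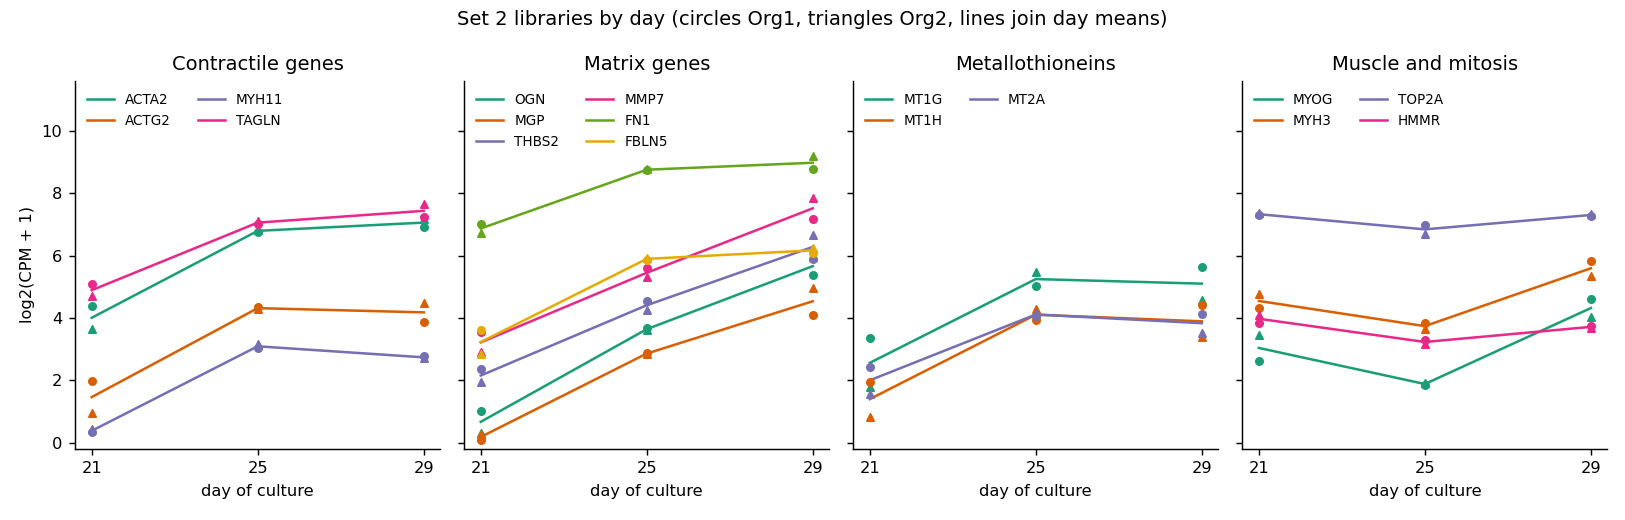
Values of contractile, matrix, metallothionein, and muscle and mitosis genes in the 6 libraries of set 2 by day of culture, on the log2(CPM + 1) scale, with circles for Org1, triangles for Org2 and lines through day means. The contractile genes and the metallothioneins are near level from D25 to D29, OGN, MGP, THBS2 and MMP7 keep climbing, and MYOG, MYH3, TOP2A and HMMR are lowest on D25.

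Single cells of the D24 vehicle control give the levels of these genes by marker gate 1 day before D25. This is 1 library of whole wells, so it has no replicate and differs from the isolated spheroids in what was collected. Of 12494 barcodes 11906 had over 500 genes, with a median of 6358.5 UMIs (counted molecules) a cell. Cells were put in a gate by the number of listed markers with a UMI, which gave 1066 podocyte, 282 proximal tubule, 1927 stromal, 1368 neuron, 293 skeletal muscle and 684 neural crest and glia cells, with 620 cells in several gates left out and 5666 in none. A gate is a range on a count and not a clean type: 2541 cells lay within 1 marker of the stromal limit, 400 of the podocyte limit and 222 of the proximal tubule limit, and the proximal tubule gate had a median of 5 podocyte markers beside 9 of its own. None of the 20 genes with the largest changes was used as a marker. No doublet caller was run. Levels are CPM of the UMIs summed over a gate, and intervals are exact Poisson 95% intervals, which cover counting error only. UMIs from free RNA were not removed: STMN2, a neuron marker at 3375 CPM in its own gate, had 8.92 to 23.2 in the others, the podocyte marker PODXL 1656 against 7.33 to 34.7, and the muscle marker MYL1 1597 against 0 to 0.80. A level of a few CPM beside a far higher one elsewhere is therefore not read as expression.

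Of the 10 largest rises 8 were highest in the stromal gate, and for 7 of these the interval there lay above that of every other gate. ACTA2 had 338 CPM there (329 to 347) and 23.5 (18.1 to 30) in the next gate, skeletal muscle. MGP had 190 (184 to 197), COL12A1 108, OGN 87.7 (83.2 to 92.5), ACTG2 75.6, FBLN5 58.3, INHBA 26.1 (23.6 to 28.7) and MYH11 2.40 (1.70 to 3.29), the last from 38 UMIs and with an interval that overlaps the one in skeletal muscle. No gate of smooth muscle cells was set, and levels in cells of no gate were not measured. The contractile genes are therefore not placed in fibroblasts rather than smooth muscle cells. The other rises, MT1G and MT1H, were highest in the proximal tubule gate, at 773 (749 to 798) and 367 (350 to 384), where MT2A also had its highest level, 241. The growth factor genes that rose were highest in stromal cells too, with RSPO3 at 436 (426 to 446), IGF1 at 292 and HGF at 50.8 (47.3 to 54.4), and so were C7 (208) and WNT4 (109). Of the 10 largest falls 4 were higher in the podocyte gate than in every other beyond their intervals, with SLC16A1 at 157 (149 to 165) against 47.6 (43.0 to 52.7) in neural crest and glia, CRYGN at 22.2, DSC1 at 20.8 and DGKG at 2.93 from 30 UMIs. SST was highest in neurons (419, with 48.6 in stroma), and LIN28A in neural crest and glia (9.60, 7.58 to 12). For the other 4 no gate stood apart from the rest: MYEOV and SLC4A11 had 27 and 11 UMIs in podocytes (2.63 and 1.07), and MYOM2 and FGF8 had 16 and 10 in skeletal muscle (5.88 and 3.68), each with an interval that overlaps those of 2 or more other gates. JAG1 was highest in the proximal tubule gate, at 208 against 62.8 in podocytes. The highest gate of FGF8 changed when each gate needed 1 marker fewer, while 19 of the 20 genes kept theirs, and all 20 did with 1 marker more. Among the endothelial markers PECAM1 gave 2 UMIs and CDH5 11 over all gates, too few to place them in a gate. The 5666 cells of no gate and the 620 of several gates were not counted for these genes. KDR was highest in the stromal gate (21.8, 19.6 to 24.3, from 346 of 399 UMIs), with 2.21 in the next, while EGFL7 (172) and ESAM (37.9) were highest in the proximal tubule gate and CLDN5 (550.0) in podocytes. No gate of endothelial cells was set.

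**Figure D5:**
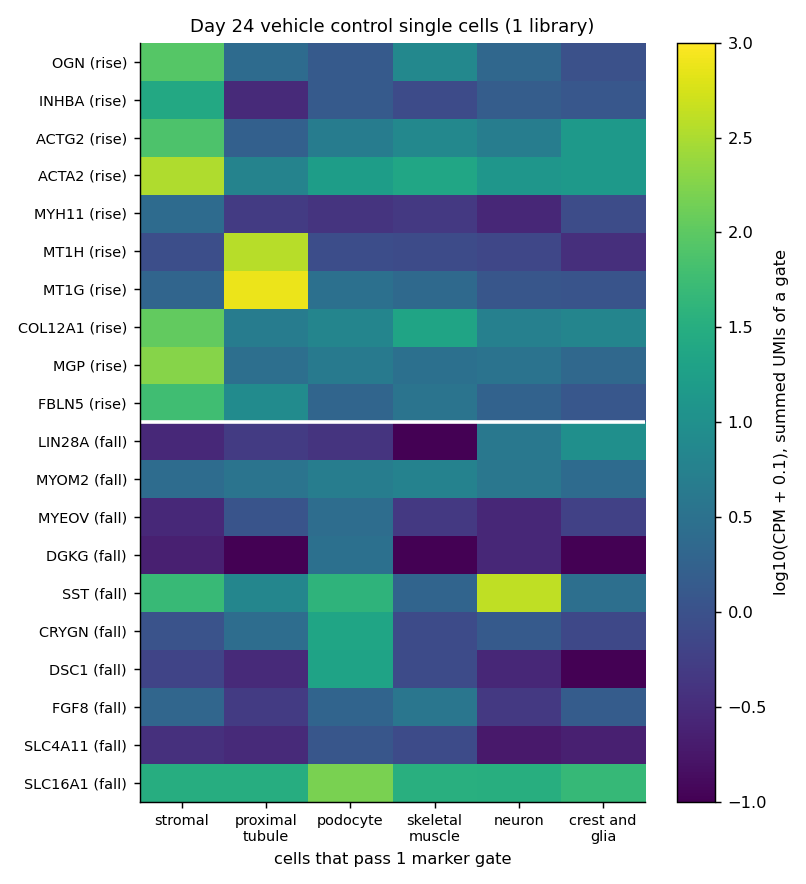
Level of the 10 largest rises and 10 largest falls (rows) in the cells of each marker gate (columns) of the day 24 vehicle control library, coloured by log10(CPM + 0.1) of summed UMIs. Of the rises 8 of 10 are highest in the stromal column, and MT1G and MT1H in the proximal tubule column. Of the falls 6 of 10 are highest in podocytes, 4 of them beyond their counting intervals.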

How the data were processed

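RNA of isolated kidney organoid spheroids was sequenced as 150 bp paired-end total RNA. The authors aligned reads with STAR 2.7.8a to ENSEMBL GRCh38.104, counted reads per gene with HTSeq (0.12.4 in the methods, 0.11 in the submitters' processing notes), and used voom for normalization. Genes had been filtered before deposit, and the sources used here state no rule for it or whether counting used strand, so overlapping and antisense genes are uncertain. The deposited log2 values are log2(CPM + 1), with 0.5 added to each count and 1 to the library total, and whole reads were recovered from them. The deposited single-cell counts are UMIs per gene in a filtered matrix. Columns of the bulk tables that belong to no sample of the series numbered 0.

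With limma 3.58.1 under R 4.3.3, 1 mean a day was fitted to the 6 set 2 libraries, with variances moderated by eBayes along a trend with mean expression, and p-values were adjusted over all genes of the table. Set 1 was normalized separately and has no test. Of the genes 27240 matched GENCODE 44 by Ensembl gene identifier. Alternatives were edgeR 4.0.16, DESeq2 1.42.0 and voom on the recovered reads, other scalings, filters and libraries left out. The scripts were tested on simulated data. The day contrast, the members and the gene lists were chosen with earlier results of these data known. Named genes are the 10 largest rises and 10 largest falls with a mean of at least 1, no overlap and the same direction in set 1, up to 3 members a list and direction with the largest called changes, and key markers of each list whatever their values (212 in all). Other genes were named after their values were seen, and some named by the rule are not reported here.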

Additional observations from a re-analysis of the deposited data

How the results depend on the processing

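The number of genes called on D25 against D21 was 1486 with all 6 libraries, 1980 with edgeR, 1859 with DESeq2 and 1511 with voom. It was 2257 with the D21 and D25 libraries alone (916 lower), 2252 with centring on the median of all genes (1281 lower) and 190 for genes called also in every fit without a D21 or D25 library (156 higher, 34 lower). It ran from 241 to 2231 when 1 library was left out, with 191 to 1336 higher and 50 to 896 lower. Without a trend on the mean 348 genes were called lower. For the difference between intervals, 0 genes passed with limma, 2 without the trend, 23 with voom, 41 with centring on genes of mean at least 1, 86 with centring on all genes, 20 among genes of mean at least 1, 144 with edgeR and 245 with DESeq2, and 0 to 118 when 1 library was left out. Without the added 1, 2526 genes passed a 2-fold change in place of 426. The share of called genes with the same direction in set 1 was 97.9% for set 1 changes of at least 0.5, 82.2% with both sets centred, 97.9% for the genes called in every fit and 94.0% to 97.9% when 1 library was left out. The cause of these differences was not tested, except that leaving out a D21 or D25 library gives a day 1 library, which is then assumed to vary like the other days, and leaving out a D29 library rests the spread on D21 and D25.

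Of 148 called genes among the 212 named, 146 were called with edgeR, 144 with DESeq2, 148 with the D21 and D25 libraries alone, 116 without the trend and 58 to 94 without a D21 or D25 library, and 53 in each of these last fits. None changed sign under any of these settings. Of 42 lists, 15 had a median of at least 0.3 in size, and 0 of these changed sign.

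Org numbers were not taken as pairs, and whether they pair the libraries was not tested. The correlation of Org1 minus Org2 over genes was 0.143 between D21 and D25, 0.0753 between D21 and D29 and 0.270 between D25 and D29. With the replicate block 2091 genes were called, 1259 higher and 832 lower, and 2 for the difference between intervals. A gene at 1 CPM rests on about 19 to 28 reads in the 4 libraries compared.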
